A study of Mus musculus with 20 samples.

Results

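Oxidative phosphorylation (OXPHOS) genes were followed in mouse embryonic fibroblasts in which the gene for UBF, the upstream binding factor of RNA polymerase I, can be deleted. The genes were taken by name: every gene whose single symbol begins with Nduf, Uqcr, Atp5 or Cox followed by a digit from 4 to 8, and Sdha, Sdhb, Sdhc, Sdhd, Cyc1 and Cycs, with pseudogenes left out. This gave 91 of the 19938 genes that have a probe set of their own on the array. Of these, 34 encode complex I subunits (6 core and 28 accessory), 7 encode the complex I assembly factors Ndufaf1 to Ndufaf7, which are not subunits, 4 belong to complex II, 9 to complex III, 1 is cytochrome c (Cycs), 19 belong to complex IV and 17 to complex V. Cox7b2, an isoform gene of complex IV, lay between 4.51 and 5.13 on the log2 scale over all arrays, exceeded the 40th percentile of the array on 0 of 20 arrays and was not tested, which left 90 members among 15272 genes tested. Probe sets of Cox7c and Ndufb4 carry several gene symbols and were left out, and Ndufb1 and Ndufaf8 were not analysed here.

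OXPHOS is the route by which mitochondria turn the oxidation of NADH and succinate into ATP. Complexes I and II feed electrons to ubiquinone, complex III passes them to cytochrome c, complex IV hands them to oxygen, and complexes I, III and IV pump protons whose return through complex V, the ATP synthase, drives ATP formation. Most subunits are encoded in the nucleus and a few in mitochondrial DNA, and several subunits of complexes IV and V have alternative isoforms with their own tissue patterns.

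The arrays cover 4 lines, 1 for each cell type and genotype: primary fibroblasts (MEFs) of E14.5 embryos and fibroblasts immortalized with the SV40 T/t antigens (iMEFs), each either Ubf fl/fl, with loxP sites around exons of both Ubf alleles, or isogenic Ubf wt/wt. All 4 lines are homozygous for ER-Cre, a recombinase activated by 4-hydroxytamoxifen (4-HT), and all were given 50 nM 4-HT for 4 h, so the wild-type cells carry both the recombinase and the drug. Total RNA was taken at 0, 24, 48, 72 and 96 h post 4-HT (pHT), with 1 array for each line and time, 20 in all and 0 groups with a replicate. Each genotype and cell type is thus 1 line, so a difference between genotypes at 0 h cannot be told apart from a difference between lines.

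Over the genes tested, the interquartile range of an array ran from 2.25 to 2.82 in iMEFs and from 2.61 to 2.82 in MEFs on the log2 scale, and was lowest in Ubf fl/fl iMEFs at 96 h (2.25) and Ubf wt/wt iMEFs at 96 h (2.36). Ubtf, the gene for UBF, lay between 10.01 and 10.62 in Ubf fl/fl iMEFs, 9.49 and 10.45 in Ubf wt/wt iMEFs, 10.53 and 10.65 in Ubf fl/fl MEFs and 10.22 and 10.75 in Ubf wt/wt MEFs. Its late effect did not pass the test in iMEFs (0.13 ± 0.18, SE) or in MEFs (0.36 ± 0.18), and whether its probes lie in the deleted exons is not given in the sources used here, so the probe set does not check the labels. All 12 fibroblast markers were over the 40th percentile on every MEF array and 10 or 11 of them on the iMEF arrays. The summed linear level of 19 macrophage markers was 10875 to 30787 on MEF arrays, with 18 or 19 of them over the 40th percentile, and 1629 to 2829 on iMEF arrays, with 9 to 12. In bulk RNA, fewer cells of a type and less RNA per cell cannot be told apart.

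The first comparison asked whether OXPHOS genes followed the loss of UBF in iMEFs. The late effect is the change from 0 and 24 h to 48, 72 and 96 h in Ubf fl/fl cells minus the same change in Ubf wt/wt cells. By limma with Benjamini-Hochberg adjustment over all genes, 0 of 90 members passed the threshold of 0.05, where 0.223% of all genes passed. At an unadjusted p under 0.05 there were 18 of 90 members, 17 lower and 1 higher, and 22.1% of all genes (15.5% lower and 6.53% higher). The median late effect of the members was -0.11 and that of all genes -0.04, and 66 of 90 members (73.3%) and 53.6% of all genes lay below 0.

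The members with the lowest p-values came from complexes II and IV. Sdha, the flavoprotein of succinate dehydrogenase, was at 10.40, 11.01, 10.34, 9.67 and 9.52 (log2 level at 0, 24, 48, 72 and 96 h) in Ubf fl/fl iMEFs. In Ubf wt/wt iMEFs it was at 9.85, 9.97, 10.41, 10.09 and 9.42. The Ubf fl/fl values lay above the Ubf wt/wt values at 0 and 24 h and below them at 48 and 72 h, and the late effect of -0.93 ± 0.23 missed the threshold (adjusted p = 0.0782). Cox6c, an accessory subunit of cytochrome c oxidase, was at 11.84, 12.22, 11.64, 11.11 and 11.22 in Ubf fl/fl iMEFs. Its levels in Ubf wt/wt iMEFs were 11.38, 11.15, 11.63, 11.31 and 11.38. Both early arrays of the Ubf fl/fl line thus lay above those of the Ubf wt/wt line, and the late effect was -0.89 ± 0.22 (adjusted p = 0.0782).

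Cox7b, another small subunit of complex IV, had the lowest late effect of all 90 members, -1.15 ± 0.35 (adjusted p = 0.106). Its levels were 11.13, 12.25, 10.79, 10.49 and 10.87 in Ubf fl/fl iMEFs and 10.93, 10.55, 11.13, 10.65 and 10.98 in Ubf wt/wt iMEFs. The 24 h array of the Ubf fl/fl line stood above the other 9 iMEF arrays, and without it the late effect was -0.41. The same array was the highest iMEF array for Uqcrb, a subunit of complex III, at 10.93 against 9.0 to 9.72 on the other 9. It also had the largest interquartile range of the iMEF arrays (2.82) and the highest median over members (10.74 against 10.16 to 10.55). Without it Sdha lay at -0.68 and Cox6c at -0.58. The median late effect was then -0.08 over the members, with 60 of 90 below 0, and -0.06 over all genes.

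**Figure D1:**
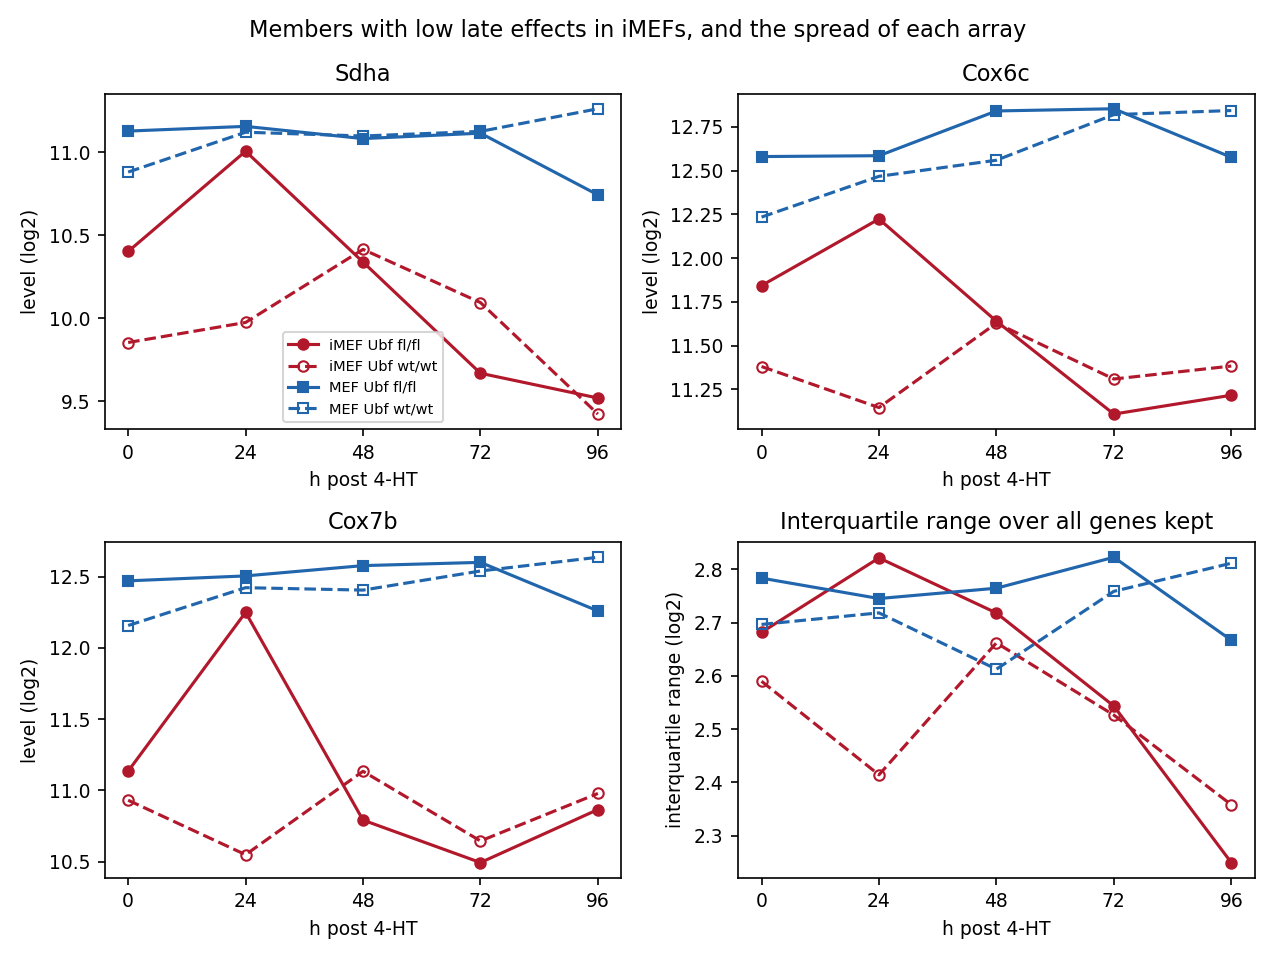
Log2 levels of Sdha, Cox6c and Cox7b and the interquartile range of each array over the 15272 genes tested (vertical axes) against h post 4-HT, with 1 point per array, red circles for iMEFs, blue squares for MEFs, filled for Ubf fl/fl and open for Ubf wt/wt. The Ubf fl/fl array at 24 h is the highest of the iMEF arrays in all 4 panels (Cox7b at 12.25, interquartile range 2.82), and the iMEF arrays at 96 h have the lowest interquartile ranges (2.25 and 2.36).

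By complex, 26 of 34 complex I members lay below 0 in iMEFs, with a median of -0.11 and a range from -0.93 (Ndufs4, an accessory subunit of the NADH-oxidizing arm, ± 0.30) to 0.33 (Ndufb2, an accessory subunit of the membrane arm, ± 0.17). All 7 complex I assembly factors were below 0 (median -0.20), with Ndufaf1 at -0.69 ± 0.23. In complex II, Sdhb, the iron-sulphur subunit, was at 0.22 ± 0.26. Complex III had 5 of 9 members below 0, from Uqcrb at -0.70 ± 0.36 to Cyc1, the cytochrome c1 subunit, at 0.17 ± 0.20. Complex IV was evenly spread, with 9 of 18 below 0, and held the highest late effect of all members, Cox6a2, the heart and muscle isoform of subunit 6a, at 0.59 ± 0.21 (adjusted p = 0.147). Of 18 striated muscle markers 14 were above 0 in the same test, with a median of 0.21 and 0 called, and their part in the Cox6a2 value was not tested. In complex V, 15 of 17 members were below 0, from Atp5md, a small membrane subunit, at -0.91 ± 0.29 to Atp5k at 0.09 ± 0.15. Cycs lay at -0.57 ± 0.29.

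The direction of the group as a whole depended on how the arrays were scaled. With every array shifted to 1 median the median late effect in iMEFs was 0.06 for the members and 0.14 for all genes, after quantile normalization -0.01 and 0.04, and with arrays set to 1 median and 1 interquartile range 0.24 and 0.17. The members thus lay below all genes as deposited, at 1 median and after quantile normalization, and above them at 1 median and 1 interquartile range. Without rescaling, the members also lay above all genes with the filter at the 60th percentile (-0.11 against -0.13). The same held with 24 h counted as late (-0.03 against -0.05), but not with the 24 h arrays left out (-0.08 against -0.06). Time by time, the median of Ubf fl/fl minus Ubf wt/wt relative to 0 h was 0.13 at 24 h, 0.01 at 48 h, 0.01 at 72 h and -0.25 at 96 h over the members. Over all genes it was 0.00, -0.01, -0.06 and -0.08, and 77 of 90 members were below 0 at 96 h. The low member median at 96 h stood beside the lowest interquartile range, and the part of the array spread in it was not tested.

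In MEFs, 0 of 90 members passed the threshold for the late effect, as did 0% of all genes. At an unadjusted p under 0.05 there were 3 of 90 members and 6.89% of all genes. The median was 0.03 over the members and 0.06 over all genes, and 53 of 90 members lay above 0. Cox6b2, the testis isoform of subunit 6b of complex IV, had the highest late effect, 1.21 ± 0.30 (adjusted p = 0.636). Ndufs1, the largest iron-sulphur subunit of complex I, had the lowest, -0.71 ± 0.31 (adjusted p = 0.706). Its levels were 9.14, 9.28, 9.12, 9.31 and 8.41 in Ubf fl/fl MEFs and 8.61, 9.08, 9.05, 9.33 and 9.52 in Ubf wt/wt MEFs, so that the 96 h arrays differed most. Ndufa4l2, a paralogue of the complex IV subunit Ndufa4 known as a hypoxia-induced gene, was at 7.0, 7.07, 7.24, 7.78 and 8.56 in Ubf fl/fl MEFs and between 6.96 and 7.30 on all 5 Ubf wt/wt arrays. Its late effect was 0.70 ± 0.37 (adjusted p = 0.718). Cox4i2, the isoform of subunit 4 that is also known to respond to low oxygen, had a late effect of 0.42 ± 0.17 (adjusted p = 0.706), with levels of 7.83, 7.79, 8.07, 8.01 and 8.40 in Ubf fl/fl MEFs and 7.77 to 8.13 in Ubf wt/wt MEFs. In iMEFs the change from the early to the late arrays was 0.12 (Ubf fl/fl) and 0.11 (Ubf wt/wt) for Cox4i2. For Ndufa4l2 it was 0.29 and 0.13. A response to low oxygen was not tested.

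Other members at the ends of their complexes in MEFs had smaller late effects. Ndufv3 lay at 0.49 ± 0.23, Uqcrq at 0.26 ± 0.24, Atp5e at 0.30 ± 0.25, Sdhb at 0.21 ± 0.26 and Ndufaf6 at 0.15 ± 0.16. Sdha and Ndufa4 lay at -0.32 each, with SEs of 0.23 and 0.28, Ndufaf5 at -0.32 ± 0.18, Uqcrc2 at -0.21 ± 0.17, Atp5md at -0.16 ± 0.29 and Cycs at -0.37 ± 0.29. None of them passed the test. In the later Ubf fl/fl MEF arrays the summed macrophage markers were 19504 to 30787 and in the later Ubf wt/wt MEF arrays 10875 to 16294, and their part in these values was not tested.

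**Figure D2:**
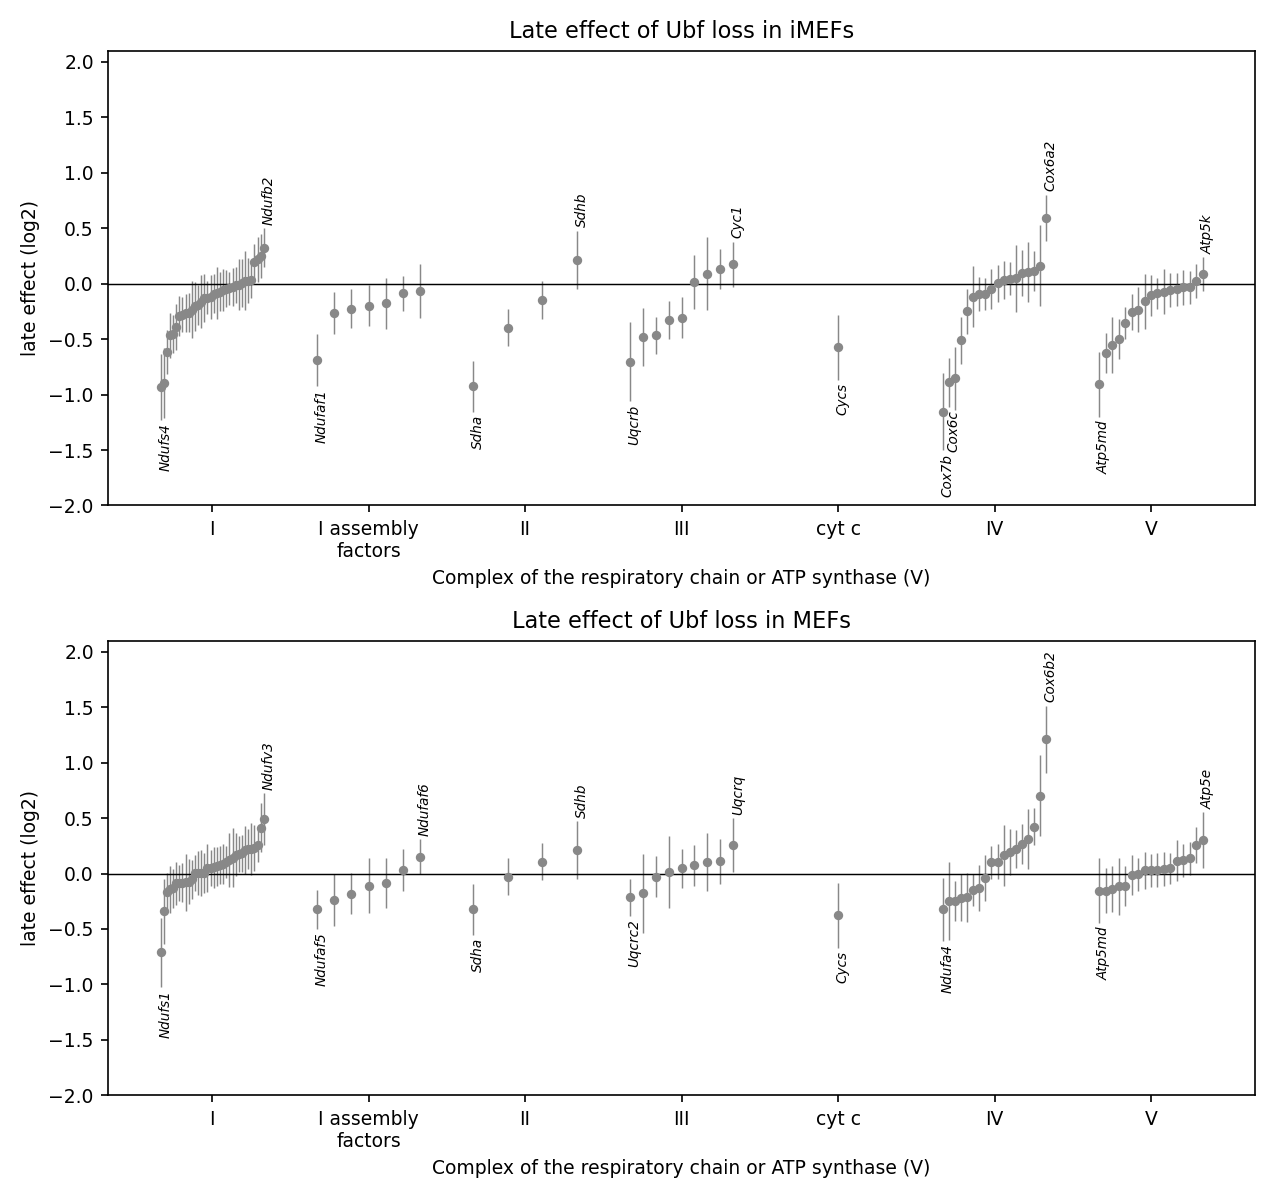
Late effect of Ubf loss (vertical axis, log2) for the 90 members tested, ordered within each complex, in iMEFs (upper panel) and MEFs (lower panel), with bars of 1 SE, all grey because 0 passed the threshold. Sdha (-0.93), Cox6c (-0.89) and Cox7b (-1.15) are low in iMEFs, and Cox6b2 (1.21) is the highest in MEFs.

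The difference between the late effects of iMEFs and MEFs was tested in the same model. It passed the threshold for 0 of 90 members and for 0% of all genes, with 1 member and 7.44% of all genes at an unadjusted p under 0.05. That member was Cox6b2 at -1.16 ± 0.43 (adjusted p = 0.623). At the positive end, Ndufb2 lay at 0.38 ± 0.25 (adjusted p = 0.765). The median difference was -0.21 over the members and -0.11 over all genes.

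The second comparison asked how OXPHOS genes moved with time after 4-HT whatever the genotype, as the later (48, 72 and 96 h) minus the earlier (0 and 24 h) means over both genotypes. In MEFs, 3 of 90 members passed the threshold, 2 higher and 1 lower, which is 3.33% against 7.42% of all genes (3.05% higher and 4.37% lower). Cox6b2 was at 7.14, 7.22, 8.32, 9.09 and 10.27 in Ubf fl/fl MEFs and at 7.67, 7.37, 7.93, 8.39 and 8.74 in Ubf wt/wt MEFs. It rose by 1.44 ± 0.31 (2.71-fold, adjusted p = 0.0171), with 2.05 ± 0.42 in the Ubf fl/fl arrays alone and 0.84 ± 0.25 in the Ubf wt/wt arrays alone, where it missed the threshold (adjusted p = 0.0741). In iMEFs the levels of Cox6b2 were 7.60, 7.06, 8.03, 8.30 and 8.11 in the Ubf fl/fl line and 8.92, 8.54, 9.08, 9.74 and 9.69 in the Ubf wt/wt line. The change there was 0.79 ± 0.31 (adjusted p = 0.337), and the difference between the cell types was -0.65 ± 0.44 (adjusted p = 0.608). In each of the 4 lines all 3 later arrays lay above both earlier ones for Cox6b2, the only member of which this was true, and it was true of 0.891% of all genes.

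Ndufa1, an X-linked accessory subunit of the membrane arm of complex I, was at 7.52, 7.44, 8.08, 8.25 and 8.0 in Ubf fl/fl MEFs and at 7.53, 7.42, 7.88, 8.21 and 8.47 in Ubf wt/wt MEFs. Every later MEF array lay above every earlier one, and Ndufa1 rose by 0.67 ± 0.17 (1.59-fold, adjusted p = 0.0345). In iMEFs, where Ndufa1 was at 6.41, 6.98, 6.65, 6.19 and 6.01 and at 6.67, 6.41, 6.73, 6.21 and 6.12, the change was -0.30 ± 0.17 (adjusted p = 0.475). The difference of -0.97 ± 0.24 between the cell types was the member difference with the lowest p and missed the threshold (adjusted p = 0.0841). Cyc1, which carries the haem that passes electrons to cytochrome c, was at 10.91, 11.07, 10.64, 10.41 and 10.83 in Ubf fl/fl MEFs and at 11.13, 10.99, 10.53, 10.59 and 10.65 in Ubf wt/wt MEFs. It fell by 0.41 ± 0.11 on the log2 scale (adjusted p = 0.0416), and again the later and earlier MEF arrays did not overlap. The Cyc1 call held in only 16 of 34 alternative settings, among them 9 of the 20 that left out a single array. Its change stayed below 0 in all of them (-0.48 to -0.31). The Ndufa1 call held in 22 of 34 and the Cox6b2 call in 28 of 34.

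These 3 calls were lost when the 24 h arrays were left out (0 members, with 2.72% of all genes passing) or counted as late (0 members and 0% of all genes), and when the 72 h arrays were left out (0 members and 2.57% of all genes). The count was also 0 without the 96 h array of Ubf wt/wt MEFs (3.55% of all genes), 6 without the 96 h array of Ubf fl/fl MEFs (10.1%), 5 without the 24 h array of Ubf wt/wt MEFs (8.47%), and 1 without the iMEF Ubf fl/fl 48 h, iMEF Ubf wt/wt 24 h or iMEF Ubf wt/wt 96 h array, since both cell types share 1 estimate of the spread.

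**Figure D3:**
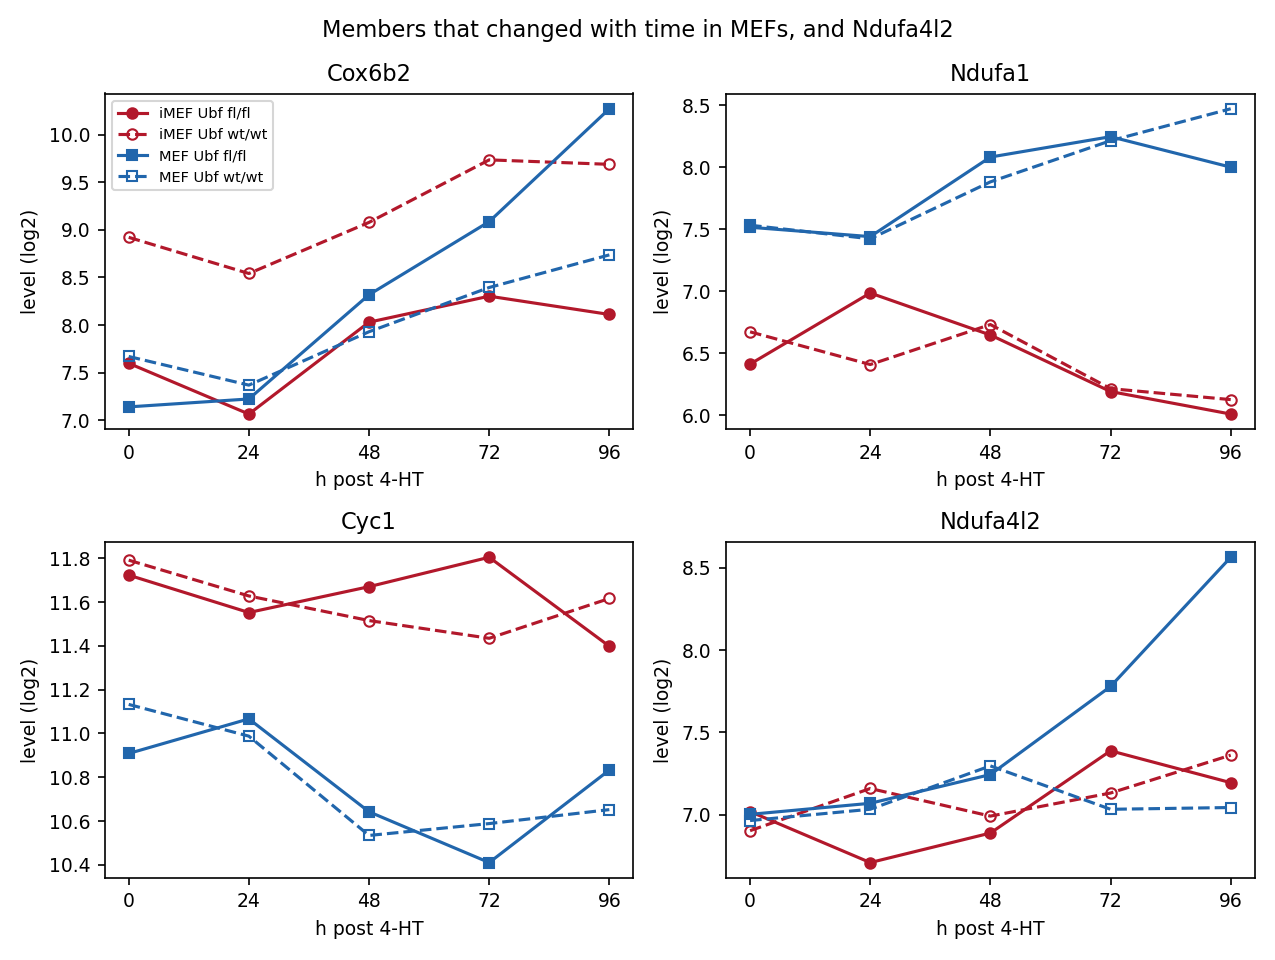
Log2 levels (vertical axes) of Cox6b2, Ndufa1, Cyc1 and Ndufa4l2 against h post 4-HT, with 1 point per array, red circles for iMEFs, blue squares for MEFs, filled for Ubf fl/fl and open for Ubf wt/wt. Cox6b2 is higher at 48, 72 and 96 h than at 0 and 24 h in all 4 lines, and Ndufa4l2 reaches 8.56 in Ubf fl/fl MEFs at 96 h while the Ubf wt/wt MEF arrays stay at or below 7.30.

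In iMEFs, 0 of 90 members passed the threshold for the change with time, where 0.177% of all genes passed. At an unadjusted p under 0.05 there were 21 members and 12.8% of all genes. The median was -0.11 over the members and -0.00 over all genes, and 62 of 90 members lay below 0. With arrays set to 1 median and 1 interquartile range the member median was 0.01. Cycs, the electron carrier between complexes III and IV, had the lowest p of those below 0, at -0.52 ± 0.16 (adjusted p = 0.262). Its levels were 11.10, 11.49, 10.74, 10.40 and 10.33 in Ubf fl/fl iMEFs and 10.91, 10.74, 11.03, 10.35 and 10.40 in Ubf wt/wt iMEFs. Cox7a2l, a relative of subunit 7a that takes part in joining complexes III and IV into supercomplexes, had the lowest p of those above 0, at 0.58 ± 0.22 (adjusted p = 0.322). It was at 8.85, 8.65, 8.79, 9.37 and 9.76 in Ubf fl/fl iMEFs and 8.69, 8.23, 8.70, 8.94 and 9.55 in Ubf wt/wt iMEFs, so that the 96 h array was the highest of each line. In MEFs its change was -0.08 ± 0.22.

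In complex V, 0 of 17 members passed the threshold for the time change in iMEFs or in MEFs. Of all genes, 0.177% passed in iMEFs and 7.42% in MEFs. For Atp5a1 and Atp5c1, the alpha and gamma subunits of the F1 head, and Atp5g1, a gene of the c ring, all 3 later arrays lay below both earlier ones in each of the 4 lines, which held for 3 of 90 members and 1.33% of all genes. Atp5g1 was at 12.75, 12.63, 12.53, 12.39 and 12.09 in Ubf fl/fl iMEFs and at 12.52, 12.39, 12.08, 12.04 and 12.15 in Ubf wt/wt MEFs. It missed the threshold in both, with a change of -0.36 ± 0.12 for iMEFs (adjusted p = 0.272) and of -0.35 ± 0.12 for MEFs (adjusted p = 0.105). The difference of the time changes between cell types passed the threshold for 0 of 90 members and 1.58% of all genes. Uqcrc1, a core subunit of complex III, lay at 0.35 ± 0.15 in that test (adjusted p = 0.349).

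The third comparison set the 2 iMEF lines against the 2 MEF lines, each line taken as its mean over 5 times. It called 48 of 90 members (53.3%), 25 higher and 23 lower in iMEFs, where 66.3% of all genes were called (35.1% higher and 31.2% lower). The median difference was 0.03 over the members and 0.12 over all genes. Shifting the arrays to 1 median moved the median of all genes to 0.35 and the calls to 41 members higher and 18 lower, beside 76.2% of all genes called. Quantile normalization gave 33 higher and 20 lower, beside 66.7% of all genes. Arrays set to 1 median and 1 interquartile range gave 51 higher and 16 lower of 90, which is the share of all genes called there (74.4%), with a median of 0.39 over the members and 0.34 over all genes. The share of members called was thus below that of all genes as deposited and under the first 2 scalings, and the order of the medians turned under the last. The 10 iMEF arrays did not overlap the 10 MEF arrays for 13 of 90 members (14.4%), 8 above and 5 below, and for 25.6% of all genes. With the 0 h arrays alone, 1 per line, 20 members were called (8 higher and 12 lower), all of them among the 48, and 30.6% of all genes. Immortalization, passage and the makeup of the cultures cannot be told apart in this comparison: 11 of 12 fibroblast markers and 19 of 19 macrophage markers were lower in iMEFs, with medians of -1.77 and -2.76, and their part in the member values was not tested.

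**Figure D4:**
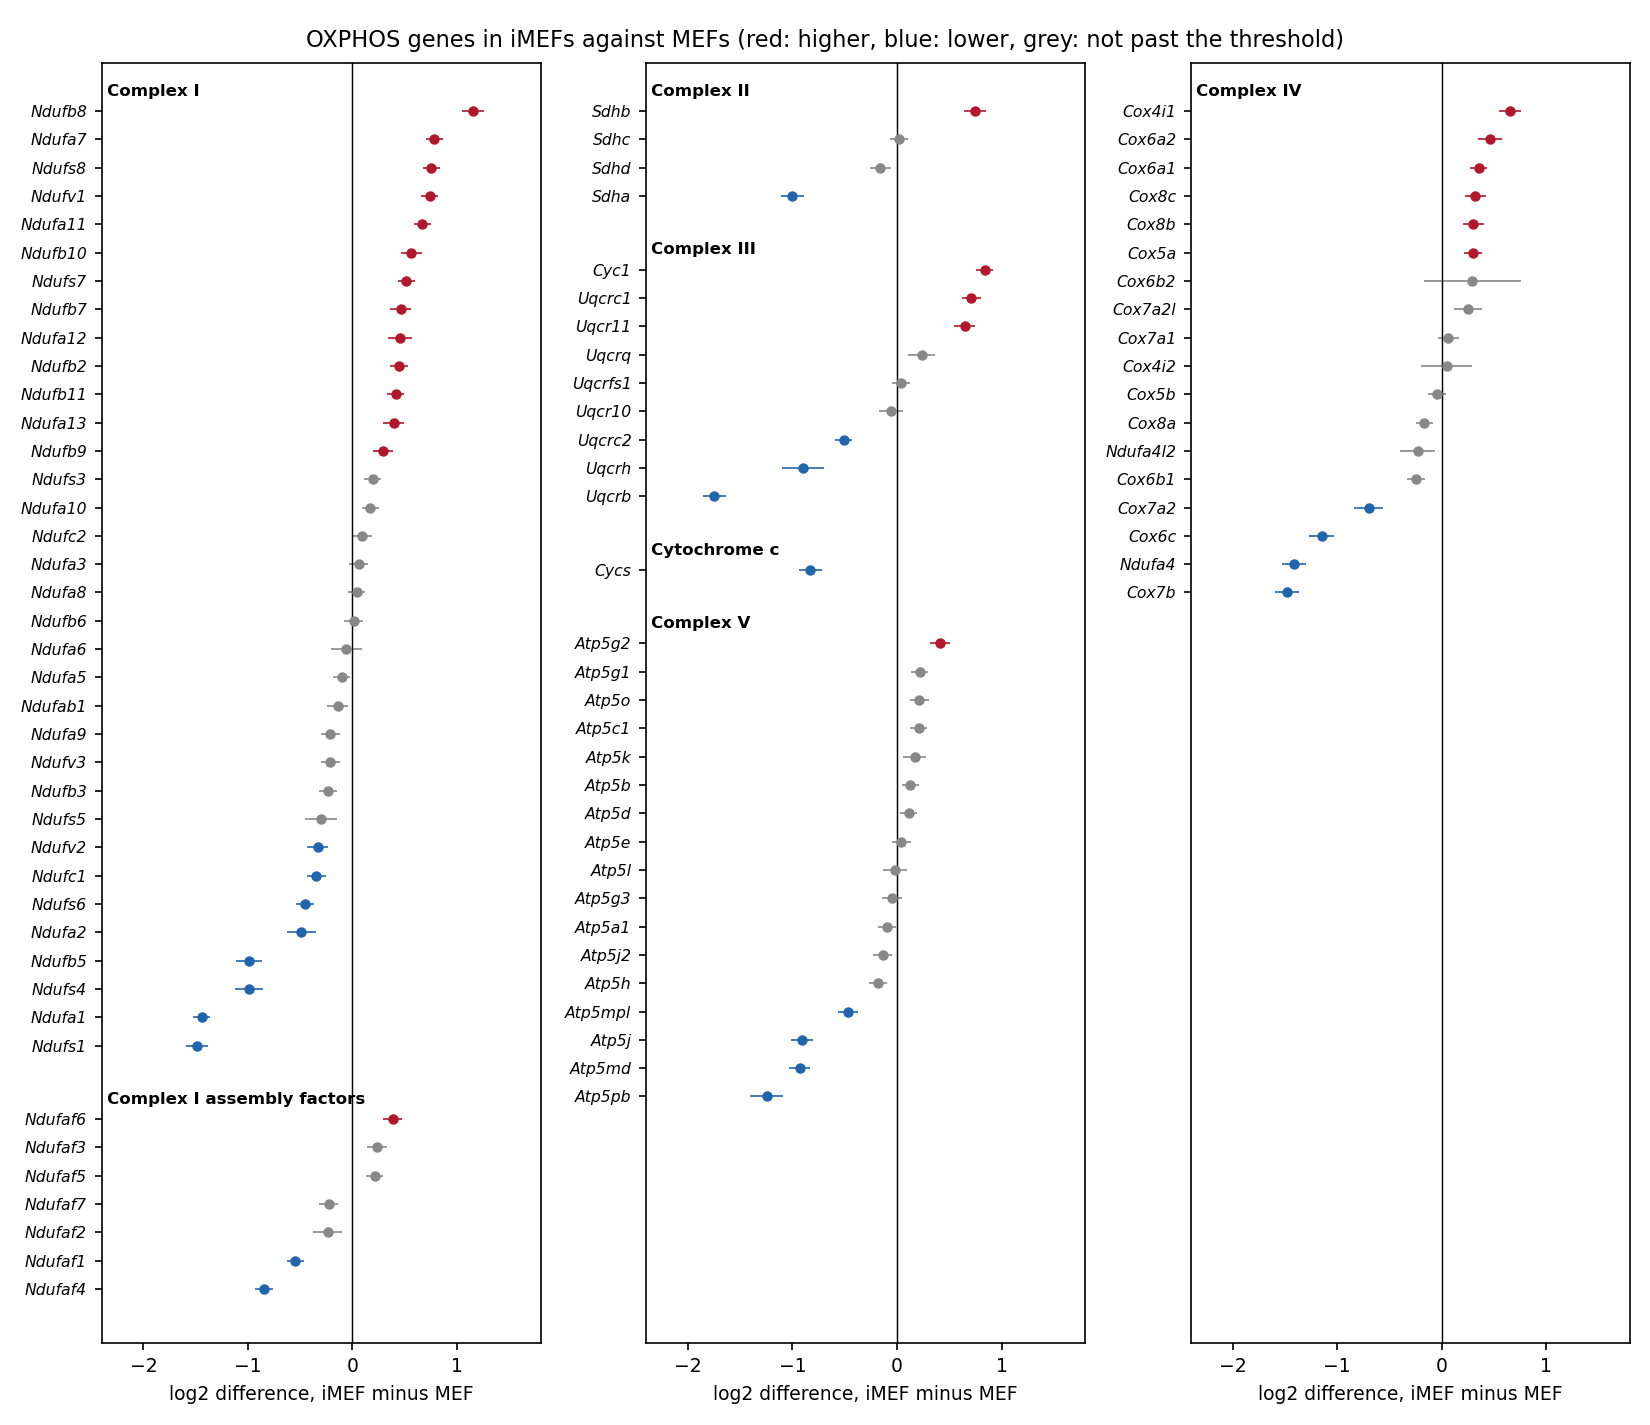
Difference of iMEF and MEF line means (horizontal axis, log2) for the 90 members tested, by complex, with bars of 1 SE and each member named, red for higher in iMEFs, blue for lower and grey for not past the threshold (25 are red and 23 blue). Members of 1 complex lie on both sides of 0, such as Sdhb (0.75) and Sdha (-1.0) in complex II and Cyc1 (0.84) and Uqcrb (-1.75) in complex III.

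In complex I, 13 of 34 members were higher in iMEFs and 8 lower (61.8% called, against 66.3% of all genes). Ndufb8, an accessory subunit of the membrane arm, lay at 10.15, 10.73 and 11.10 (lowest, median and highest array) in iMEFs and at 9.14, 9.54 and 10.07 in MEFs. The 2 sets of arrays did not overlap, and Ndufb8 was 2.23-fold higher in iMEFs (1.16 ± 0.11 on the log2 scale, adjusted p = 0.00136). Among the core subunits, Ndufv1, which binds NADH and the flavin, was higher by 0.74 ± 0.08, and Ndufs8 and Ndufs7, which carry the iron-sulphur clusters nearest ubiquinone, by 0.75 ± 0.08 and 0.52 ± 0.08. None of these 3 overlapped between the cell types. The accessory subunits Ndufa7 and Ndufa11 were higher by 0.78 ± 0.08 and 0.67 ± 0.08.

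At the other end of complex I, Ndufa1 lay at 6.01, 6.41 and 6.98 in iMEFs and at 7.42, 7.94 and 8.47 in MEFs. No iMEF array reached the lowest MEF array, and Ndufa1 was 2.72-fold lower in iMEFs (-1.44 ± 0.08, adjusted p = 0.000788). Its probe set exceeded the 40th percentile of the array on 16 of 20 arrays, and whether this fold is a lower bound was not tested. Ndufs1, a core subunit with iron-sulphur clusters, lay at 7.18, 7.53 and 8.45 in iMEFs and at 8.41, 9.13 and 9.52 in MEFs. It was 2.81-fold lower (-1.49 ± 0.11), and the sets overlapped through the iMEF Ubf fl/fl array at 24 h and the MEF Ubf fl/fl array at 96 h. Ndufs4 and Ndufb5 were lower by about the same amount, at -0.99 ± 0.13 and -0.99 ± 0.12. Of the assembly factors, Ndufaf4 was 1.8-fold lower (-0.85 ± 0.09) and Ndufaf1 was lower (-0.55 ± 0.08), while Ndufaf6 was higher (0.39 ± 0.09).

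In complex II the catalytic subunits went opposite ways. Sdha lay at 9.42, 10.03 and 11.01 in iMEFs and at 10.74, 11.12 and 11.26 in MEFs, and was 2.0-fold lower in iMEFs (-1.0 ± 0.11, adjusted p = 0.00213). Sdhb lay at 10.32, 11.06 and 11.23 in iMEFs and at 9.88, 10.21 and 10.60 in MEFs, and was higher by 0.75 ± 0.11 (1.68-fold, adjusted p = 0.00409). The membrane anchors Sdhc and Sdhd were at 0.02 ± 0.09 and -0.16 ± 0.10 and did not pass. For Sdha the overlap came from the iMEF Ubf fl/fl array at 24 h alone, the only iMEF array above 10.74.

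Complex III was split in the same manner, with 3 of 9 members higher and 3 lower (66.7% called, against 66.3% of all genes). Uqcrb, a small subunit beside cytochrome b, lay at 9.0, 9.55 and 10.93 in iMEFs and at 10.78, 11.26 and 11.65 in MEFs. It had the largest difference of all 90 members, 3.36-fold lower in iMEFs (-1.75 ± 0.11, adjusted p = 0.000788), and -1.91 without the iMEF Ubf fl/fl array at 24 h. Cyc1 lay at 11.40, 11.62 and 11.80 in iMEFs and at 10.41, 10.74 and 11.13 in MEFs, with no overlap, and was 1.79-fold higher in iMEFs (0.84 ± 0.08). The core subunits parted too: Uqcrc1 was higher by 0.71 ± 0.09 and Uqcrc2 lower (-0.51 ± 0.08), each without overlap between the 10 iMEF and the 10 MEF arrays. Uqcrh, the hinge subunit, was lower (-0.90 ± 0.20), Uqcr11 was higher (0.65 ± 0.10), and Uqcrq lay at 0.24 ± 0.13. Cycs was lower in iMEFs (-0.83 ± 0.11, adjusted p = 0.00336). Of the other probe sets of Cycs, 1 gave -0.88 and another, with a mean level of 5.36, gave 0.07.

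In complex IV, 6 of 18 members were higher and 4 lower in iMEFs (55.6% called, against 66.3% of all genes). The lower ones were Cox7b (10.49, 10.90 and 12.25 in iMEFs against 12.16, 12.49 and 12.63 in MEFs), Ndufa4 (8.46, 8.75 and 9.77 against 9.96, 10.23 and 10.62), Cox6c (11.11, 11.38 and 12.22 against 12.23, 12.58 and 12.85) and Cox7a2. Their differences were -1.48 ± 0.12, -1.41 ± 0.11, -1.15 ± 0.12 and -0.69 ± 0.14. The arrays did not overlap for Ndufa4 and Cox6c. Cox4i1, the common isoform of subunit 4, was higher in iMEFs by 0.65 ± 0.11 (1.57-fold), and Cox5a, which sits beside it on the matrix side, by 0.30 ± 0.09.

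As deposited, complex V had the lowest share of calls among the complexes with over 1 member, 5 of 17 (29.4%, against 66.3% of all genes). Calls by complex were not counted under the other array scalings, so whether this order holds there was not tested. Atp5pb, the b subunit of the peripheral stalk, Atp5md, Atp5j, also of the stalk, and Atp5mpl were lower in iMEFs, at -1.25 ± 0.16, -0.93 ± 0.10, -0.91 ± 0.10 and -0.47 ± 0.10. Atp5g2 was the 1 member called higher (0.41 ± 0.09), and 0 of 5 F1 subunits were called, with Atp5b, the catalytic beta subunit, at 0.13 ± 0.08 and Atp5a1 at -0.09 ± 0.08.

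The alternative isoforms are given whatever their values, and each value is a difference within 1 probe set. Cox4i2 lay at 0.05 ± 0.24 between the cell types, beside Cox4i1 at 0.65. Its spread came from the 2 iMEF lines, which were at 7.54 to 7.80 (Ubf fl/fl) and 8.22 to 8.55 (Ubf wt/wt) and did not overlap at any time. The same held for Cox6b2 in iMEFs, at 7.06 to 8.30 in the Ubf fl/fl line and 8.54 to 9.74 in the Ubf wt/wt line, and its cell type difference was 0.29 ± 0.47. In both cases the gap was there at 0 h. Cox6b1, the widespread isoform, lay at -0.24 ± 0.08 (adjusted p = 0.053). Both isoforms of subunit 6a were higher in iMEFs, Cox6a1 by 0.35 ± 0.08 and Cox6a2 by 0.46 ± 0.11. Of subunit 7a, Cox7a2 was lower, while Cox7a1, the muscle isoform, was at 0.07 ± 0.10 and Cox7a2l at 0.25 ± 0.13. Of subunit 8, Cox8a was at -0.16 ± 0.08 and did not pass. Cox8b and Cox8c, known from muscle and testis, were higher by 0.30 ± 0.10 and 0.32 ± 0.10. The Cox8b levels were low, at 6.37 to 6.70 in iMEFs and 6.03 to 6.36 in MEFs. Its probe set exceeded the 40th percentile of the array on 15 of 20 arrays, and the part of this low level in its difference was not tested. Beside the muscle isoforms, 6 of 18 striated muscle markers were higher in iMEFs and 2 lower. That is 44.4% called, against 66.3% of all genes (35.1% higher and 31.2% lower). The summed linear level of the markers was 2909 to 4729 on iMEF arrays and 3020 to 4025 on MEF arrays. Their part in the isoform values was not tested. The c ring genes Atp5g1 and Atp5g3, beside Atp5g2, were at 0.22 ± 0.09 and -0.05 ± 0.09, and Ndufa4l2 was at -0.23 ± 0.17.

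Promoter windows from RefSeq (GRCm38.p6, 250 bases before to 50 after the start) are shown for 4 of the named members: Cox6b2 and Ndufa1, which rose with time in MEFs, and Sdha and Ndufb8, which differed between the cell types in opposite directions. They read 5′ to 3′ along the gene, and capitals mark matches, on either strand, to GCGCNTGCG (a form of the site of the regulator NRF1), CCGGAAG (ETS factors such as GABP) or AAGATGGC (YY1), all 3 known as motifs of nuclear OXPHOS genes.
Cox6b2, chr7:4753045-4753344, minus strand: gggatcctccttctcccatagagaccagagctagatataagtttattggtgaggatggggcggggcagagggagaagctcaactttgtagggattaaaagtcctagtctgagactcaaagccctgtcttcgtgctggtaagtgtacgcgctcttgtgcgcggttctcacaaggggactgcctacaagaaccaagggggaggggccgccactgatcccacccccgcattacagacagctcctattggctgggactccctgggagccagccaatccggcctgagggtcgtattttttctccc
Ndufa1, chrX:37191189-37191488, minus strand: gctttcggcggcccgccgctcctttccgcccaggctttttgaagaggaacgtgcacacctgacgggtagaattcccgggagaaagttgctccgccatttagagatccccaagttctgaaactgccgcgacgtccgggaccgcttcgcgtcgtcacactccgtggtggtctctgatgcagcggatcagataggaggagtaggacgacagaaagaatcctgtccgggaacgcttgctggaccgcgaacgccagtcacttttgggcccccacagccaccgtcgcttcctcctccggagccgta
Sdha, chr13:74350191-74350490, minus strand: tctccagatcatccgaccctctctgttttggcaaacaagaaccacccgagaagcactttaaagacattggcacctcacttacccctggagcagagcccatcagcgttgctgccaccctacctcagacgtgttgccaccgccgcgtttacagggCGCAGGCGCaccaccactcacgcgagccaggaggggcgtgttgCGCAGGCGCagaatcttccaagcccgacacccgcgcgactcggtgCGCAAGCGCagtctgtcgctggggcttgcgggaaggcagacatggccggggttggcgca
Ndufb8, chr19:44555393-44555692, minus strand: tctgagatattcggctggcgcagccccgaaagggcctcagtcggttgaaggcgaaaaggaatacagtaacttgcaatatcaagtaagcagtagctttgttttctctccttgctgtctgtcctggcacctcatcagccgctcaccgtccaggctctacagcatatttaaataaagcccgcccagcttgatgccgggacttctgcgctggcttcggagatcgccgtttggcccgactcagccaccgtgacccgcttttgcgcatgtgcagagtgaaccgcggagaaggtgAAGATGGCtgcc

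The Sdha window held 3 matches to the NRF1 motif and the Ndufb8 window 1 to the YY1 motif, 38 bases past the start, while the Cox6b2 and Ndufa1 windows held 0 of the 3 motifs. Cyc1, which fell with time in MEFs, and Uqcrb, with the largest cell type difference, had no window and are not shown. Over the 74 of 91 members with a window, 45 (60.8%) held a match to any of the 3, against 17.9% of the 27025 genes with a window and 29.5% of the 12042 such genes that were tested. The NRF1 motif was found in 35.1% of the members, against 7.12% and 13.0%, the ETS motif in 24.3%, against 9.93% and 16.6%, and the YY1 motif in 13.5%, against 3.19% and 4.43%. With 1 more base, a C after the last G of the NRF1 motif, its shares were 24.3%, 5.19% and 9.64%, and the shorter form was chosen after both were seen. Members higher and lower in iMEFs held any match in 12 of 19 and 11 of 17 windows. A match is a run of letters and not a binding site, and no factor was measured on these promoters.

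The wider pathway was read from gene lists. Of 40 OXPHOS assembly factors outside the name rule, 7 were higher and 11 lower in iMEFs (45%, against 66.3% of all genes). Among the lower ones were Lrpprc, which stabilizes mitochondrial mRNAs (-2.02 ± 0.16), Coa5, a complex IV assembly factor (-1.47 ± 0.08), and Tmem126b, a complex I assembly factor (-1.43 ± 0.08), and among the higher ones Uqcc2, for complex III (0.76 ± 0.09). Cmc2 was the 1 list member of 40 called in the MEF time change (-0.73 ± 0.11), which is 2.5% against 7.42% of all genes. In the late effect 0 of 40 were called in iMEFs, where 30 (75%) were below 0, against 53.6% of all genes, with a median of -0.19, and 0 of 40 in MEFs. These values are as deposited. The gene lists were not run under the other array scalings, with which the sign of the member median changed, or without the iMEF Ubf fl/fl array at 24 h.

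Of 16 TCA cycle and pyruvate dehydrogenase genes, 4 were higher and 8 lower in iMEFs, a share (75%) near that of all genes (66.3%). Dld, the dihydrolipoamide dehydrogenase shared by several complexes, lay at -2.51 ± 0.16, Sucla2, a succinyl-CoA ligase subunit, at -2.08 ± 0.13, and Pdha1, of pyruvate dehydrogenase, at -1.65 ± 0.09. Idh2, the mitochondrial NADP-dependent isocitrate dehydrogenase, was higher in iMEFs (0.87 ± 0.11) and fell with time in MEFs (-0.69 ± 0.14). The late effect in iMEFs lay below 0 for all 16, against 53.6% of all genes, with a median of -0.39 and 0 called. Suclg2 had the lowest value (-1.45 ± 0.28, adjusted p = 0.0583). These late effects too are as deposited, and were not run under the other array scalings or without the iMEF Ubf fl/fl array at 24 h.

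Of 18 regulators of mitochondrial genes, 6 were higher and 7 lower in iMEFs, again a share (72.2%) near the 66.3% of all genes. Nrf1, the nuclear respiratory factor, was higher (0.59 ± 0.09), as were Polrmt, the mitochondrial RNA polymerase (0.81 ± 0.08), and Polg, the mitochondrial DNA polymerase (0.77 ± 0.08). Gabpa, the DNA-binding subunit of GABP (-1.65 ± 0.19), Tfam, which packages mitochondrial DNA (-1.03 ± 0.16), Tfb2m, a mitochondrial transcription factor (-1.94 ± 0.17), and Yy1 (-0.60 ± 0.13) were lower. Nrf1 and Pprc1, a relative of PGC-1, fell with time in MEFs (-0.39 ± 0.10 and -0.50 ± 0.13). None of the 18 was called in a late effect. Of the subunits encoded in mitochondrial DNA, ND3 and COX2 were measured, and ND3, a complex I core subunit, was lower in iMEFs (-0.61 ± 0.18, adjusted p = 0.0362).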

How the data were processed

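The authors deposited 1 log2 value for each of 35556 probe sets on each of 20 arrays. Per the study's methods they were made with Affymetrix Power Tools version 1.14.4 by RMA-sketch. The methods name the Mouse Gene 2.0 ST array, whereas symbols were taken here from the annotation of Mouse Gene 1.0 ST. It gives 1 symbol to 21789 probe sets, several to 1621 and none to 12146. Each gene was read from its probe set of highest mean, and genes over the 40th percentile of an array on at least 2 arrays were kept (15272 of 19938). All 91 members were found by gene ID in the RefSeq table with the same symbol. For 18 members with several probe sets, 16 had 1 sign of the cell type difference in all of them. All numbers are on the log2 scale unless called fold, and errors are standard errors.

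Tests used limma 3.58.1 in R 4.3.3, two-sided, with Benjamini-Hochberg adjustment over 15272 genes. The late effect came from all 20 arrays, in a model of line, of time in each cell type and of the genotype by late interaction (6 residual degrees of freedom, 4.78 from the prior). The time change used 10 means over genotypes (6 and 5.09), and the cell type difference 4 line means (2 and 2.85). No group has a replicate, so the p-values measure only the spread between these arrays around each model, and the number of arrays limits the precision. Times of a line and genes of a list are not independent replicates.

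The members and gene lists were chosen with earlier results of these data known. Named members were those with the lowest p in each direction and comparison, up to 8 past the threshold each way, the ends of each complex in the late effects, and the alternative isoforms. Others, such as Atp5a1, Atp5c1, Atp5pb, Ndufb5 and the list genes, were named after their values were seen. On simulated data with 15272 genes, limma recovered 51 of 100 genes changed by 1 and 90 of 100 changed by 2 in the iMEF late effect (7 false calls), 48 and 93 in the MEF late effect (2), 96 and 100 in the iMEF time change (8), 98 and 100 in the MEF time change (15), and 39 and 93 in the cell type difference (6). The noise was independent between arrays, with the residual spread of the late effect model, plus a spread between lines for the cell type difference. That model fits each time in each cell type, so spread between times common to both genotypes was left out. The real time changes were tested against that spread, so their recovery on simulated data is likely overstated. The alternatives were array scaling (median, quantiles), the filter (none, or the 60th percentile), averaging the probe sets of a gene, empirical Bayes with trend and robust settings, other uses of each time, time common to both cell types, 1 genotype alone and the 0 h arrays alone. Leaving out each array and scaling to 1 interquartile range were added after seeing the data. Figures were drawn in Python 3.11.15 with matplotlib 3.10.9.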

Additional observations from a re-analysis of the deposited data

How the results depend on the processing

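The 0 members called for the MEF late effect and for the difference of the late effects stayed 0 under every alternative run. In the iMEF late effect the count was 5, all lower, with the 96 h arrays left out (10.9% of all genes) and 1 (Cox6c) with time common to both cell types (1.1%). Leaving out single arrays gave 0 to 4 (0 to 0 for the MEF late effect and for the difference), with 4 lower without either iMEF 0 h array (2.75% of all genes) and 3 without either MEF 96 h array (6.53%). The iMEF time change gave 8 calls with the 48 h arrays left out (6.6% of all genes) and 0 to 0 without single arrays, and the difference of the time changes 5 with the 48 h arrays left out (4.54%), 1 with arrays scaled to 1 median (Ndufa1, -0.97) and 0 to 1 without single arrays. The MEF time change gave 0 with the 24 h or the 72 h arrays left out and with 24 h counted as late, 1 in Ubf wt/wt arrays alone (Cyc1), 1 in Ubf fl/fl arrays alone (Cox6b2), 1 with arrays set to 1 median and 1 interquartile range, and 0 to 6 without single arrays: 0 without MEF Ubf wt/wt 96 h, 6 without MEF Ubf fl/fl 96 h, 5 without MEF Ubf wt/wt 24 h. For Cox6b2 that change was 1.15 without MEF Ubf fl/fl 0 h and 1.68 without MEF Ubf wt/wt 96 h, not past the threshold in either. The cell type comparison gave 20 calls from the 0 h arrays alone and 41 to 54 without single arrays. Directions turned for Cox7b (0.0690) and Uqcrb (0.28) in the iMEF late effect with 24 h counted as late, for Ndufaf6 in the MEF late effect with time common to both cell types (-0.0889), and for Atp5md in the MEF late effect without the Ubf fl/fl or the Ubf wt/wt MEF 0 h array, with -0.344 to 0.0311 over all single arrays left out. The causes were not tested beyond the fewer arrays or genes in each fit. The arrays of 1 time were matched across genotypes in the late effect model. By replicate number, no paired analysis was possible because each group has 1 array and all carry number 1. The signal over background of single probes was not analysed here.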
